A study of Mus musculus with 2 samples.

Results

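The 6 genes described here belong to the handling of zinc and related metals in the liver. They are the metallothioneins Mt1 and Mt2, the zinc exporter Slc30a1 (ZnT1), the manganese exporter Slc30a10, the zinc importer Slc39a4 (ZIP4) and the metal-sensing transcription factor Mtf1. They were found by gene symbol in the count tables of 2 single-cell RNA-seq libraries, as 6 of 32285 listed genes. They had been selected with the difference of these genes between the libraries in hepatocyte-like barcodes already known, so those differences are a description. The first library came from WT mice and the second from HKO littermates, in which miR-33 loxP/loxP was combined with an Albumin-Cre that acts in hepatocytes (labelled AlbCRE). All mice were male, began CD-HFD (a choline-deficient high-fat feed) at 8 weeks of age and stayed on it for 6 months. Each library pooled 3 livers, with hepatocytes and sorted non-parenchymal cells mixed in equal numbers, so the level in a single liver was not measured.

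Metallothioneins are small, cysteine-rich proteins that hold zinc and copper. Zinc that enters the cell activates Mtf1, which binds metal response elements and switches on Mt1, Mt2 and Slc30a1, so that surplus zinc is bound or exported. In the liver, metallothionein genes are also induced by glucocorticoids and during the acute-phase response. SLC39 proteins bring zinc into the cytosol and most SLC30 proteins take it out, while Slc30a10 mainly exports manganese.

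Mt1 (ENSMUSG00000031765) lies on chromosome 8 at 94179082 to 94180327 of GRCm38, on the plus strand. Mt2 (ENSMUSG00000031762) lies upstream of it at 94172664 to 94173568, with 5513 bases between the pair. Slc30a1 (chromosome 1, 191906767 to 191913247, plus) and Slc30a10 (chromosome 1, 185454848 to 185468762, plus) share a chromosome. Mtf1 is on chromosome 4 (124802104 to 124849800, plus) and Slc39a4 on chromosome 15 (76612383 to 76617384, minus). The region around the transcription start, 250 bases before to 50 after, was read from RefSeq (GRCm38.p6) for 5 of the 6 genes. The RefSeq start can differ from the gene start given above, which came from GENCODE. The Mtf1 region (124802299 to 124802598) lay wholly inside the gene as given, and the Mt2 region ended just past its given start. Slc39a4 had no entry. The 4 regions below are shown because the metal response element, through which Mtf1 acts, has the core TGCACNC or TGCGCNC. Capitals mark each match on either strand, and a match on the minus strand reads as the reverse complement.

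Mt1 chr8:94178839-94179138: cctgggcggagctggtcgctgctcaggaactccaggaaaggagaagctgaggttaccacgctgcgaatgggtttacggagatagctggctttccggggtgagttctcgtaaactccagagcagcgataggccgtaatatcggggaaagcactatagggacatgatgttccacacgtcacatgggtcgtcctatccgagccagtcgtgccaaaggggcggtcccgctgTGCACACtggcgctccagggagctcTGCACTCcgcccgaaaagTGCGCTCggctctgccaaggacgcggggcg
Mt2 chr8:94172368-94172667: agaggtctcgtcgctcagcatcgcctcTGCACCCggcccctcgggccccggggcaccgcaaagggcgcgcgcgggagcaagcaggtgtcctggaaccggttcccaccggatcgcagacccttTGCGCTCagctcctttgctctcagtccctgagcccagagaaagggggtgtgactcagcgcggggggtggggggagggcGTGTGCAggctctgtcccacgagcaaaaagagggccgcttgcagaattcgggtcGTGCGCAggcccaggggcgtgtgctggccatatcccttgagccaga
Slc30a1 chr1:191906531-191906830: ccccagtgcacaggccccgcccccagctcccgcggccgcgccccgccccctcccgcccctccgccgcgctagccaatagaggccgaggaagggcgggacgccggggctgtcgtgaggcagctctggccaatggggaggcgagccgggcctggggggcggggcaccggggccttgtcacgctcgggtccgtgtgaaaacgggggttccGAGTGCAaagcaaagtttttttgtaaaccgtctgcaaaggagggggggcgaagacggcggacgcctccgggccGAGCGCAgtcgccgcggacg
Slc30a10 chr1:185454598-185454897: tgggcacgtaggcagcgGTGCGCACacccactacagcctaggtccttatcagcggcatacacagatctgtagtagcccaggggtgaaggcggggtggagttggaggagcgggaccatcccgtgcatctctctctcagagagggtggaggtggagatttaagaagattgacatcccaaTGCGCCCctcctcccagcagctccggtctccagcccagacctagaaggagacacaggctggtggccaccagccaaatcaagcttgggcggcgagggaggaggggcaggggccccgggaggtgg

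Mt2 held 4 matches, which 0.518% of all 32851 promoter regions of this length reached. Mt1 and Slc30a10 each held 3 matches, reached by 1.97%, and in Slc30a10 a forward and a reverse match overlapped. Slc30a1 held 2, reached by 7.11%. The region of Mtf1 held 0, and 25.7% of all regions held at least 1. These matches describe letters and do not show binding.

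The microRNA removed in HKO is printed with its seed, bases 2 to 8, in capitals.

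mmu-miR-33-5p: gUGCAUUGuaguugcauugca

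The complement of this seed, CAATGCA, occurred 1 time in the longest annotated 3′ UTR of Slc30a1 (3495 bases) and 1 time in that of Mtf1 (5460 bases). The 3′ UTRs of Mt1, Mt2, Slc30a10 and Slc39a4 held 0 such matches. Over 21685 protein-coding genes, 6.90% held at least 1, with a median 3′ UTR of 920 bases, far shorter than those of Slc30a1 and Mtf1. Since no row of the count tables is miR-33 itself, its loss in HKO was not measured here.

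The WT library held 130451427 UMIs (unique molecular identifiers, 1 for each captured RNA molecule) in 30078 barcodes, and the HKO library 52563185 in 20000 barcodes. Most barcodes of both libraries carried hepatocyte transcripts at 1 common depth, 2570 UMIs in WT and 813 in HKO. Barcodes without markers of other cells were therefore called hepatocyte-like from 2 times that depth upward, and of free RNA depth below it. There were 1826 hepatocyte-like barcodes in WT, with a median of 20624 UMIs, and 3520 in HKO, with a median of 4263 UMIs. Their median mitochondrial share was 11.98% and 9.81%. The 8 hepatocyte markers summed to 77106 in WT, as UMIs per 1000000 of the class (CPM), and to 67745 in HKO. The other 12 marker lists each summed to at most 374 CPM in that class, the highest being the cholangiocyte list (374 in WT, 243 in HKO). The macrophage list stood at 22.5 and 22.8 CPM. Their part in the results was not tested. With 1 library per genotype no test between genotypes was possible, and genotype, library and pool cannot be told apart. Every interval is a 95% interval and covers the counting error alone.

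Both metallothioneins were far higher in HKO hepatocyte-like barcodes. Mt1 had 11422 UMIs in WT and 23390 in HKO, or 242 CPM (237 to 246) against 935 CPM (923 to 947), and HKO over WT was 3.87 (3.78 to 3.96). Mt2 went from 51.6 CPM (49.5 to 53.7) to 169 CPM (164 to 174), which is 3.27 (3.11 to 3.44). For both, the counting intervals of the libraries were far apart. Mt1 moved from the level rank of 544 among all genes in WT to 126 in HKO. Mt2 moved from 2553 to 780. Of 7074 genes with a mean of at least 10 CPM, 26 (0.368%) were at least 2-fold higher in HKO and 67 (0.947%) at least 2-fold lower. Mt1 and Mt2 were the members among the 26, and 2 genes had a higher ratio than Mt1. Because the members were chosen from this contrast, nothing is read from that count.

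The members that move metals across membranes did not follow the metallothioneins. Slc30a1, the exporter that shares the metal response element with them, was at 24.0 CPM in the WT library against 26.4 CPM, 1.10 (0.999 to 1.21). The interval of that ratio touched 1 and lay far below the ratio of Mt1. The paper names Slc30a1 among predicted miR-33 targets found upregulated in HKO livers. Its RNA-seq was of livers after a shorter time on CD-HFD, so it is not compared with this ratio. Slc30a10, at 47.7 CPM in WT, was at 27.9 CPM in the HKO library, 0.585 (0.536 to 0.637). Slc39a4 was at 32.5 CPM against 16.0 CPM, 0.493 (0.441 to 0.551), and was the member among the 67 genes at least 2-fold lower. It missed that limit under 3 alternatives, at 0.562 without a depth minimum, at 0.507 with barcodes weighted equally and at 0.503 without mitochondrial and metallothionein genes in the denominator. Mtf1 itself was near level, with 13.8 CPM against 12.3 CPM and 0.894 (0.778 to 1.03).

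The other zinc transporters, listed by family with earlier results of these data known, were level or lower in HKO. Of 10 SLC30 genes, 5 reached 10 CPM. Slc30a1 was the 1 above a ratio of 1, and the median of the 5 was −0.13 on the log2 scale, against −0.02 over all 7074 genes, of which 3790 (53.6%) had a ratio below 1 and 3284 (46.4%) above it. Slc30a5 (0.863), Slc30a9 (0.914) and Slc30a7 (0.952), which load zinc into or handle it at internal compartments, lay close to 1. Of 14 SLC39 genes, 7 reached 10 CPM. All 7 had a ratio below 1, against 53.6% of all genes, with a median of −0.38 on the log2 scale. The lowest was Slc39a7, which releases zinc from the endoplasmic reticulum, from 34.9 to 15.8 CPM, a ratio of 0.452 (0.404 to 0.505). Slc39a11 (0.732), Slc39a9 (0.771) and Slc39a1 (0.805) followed above Slc39a4, and Slc39a14, the importer that the acute-phase response raises in liver, was at 0.949.

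**Figure D1:**
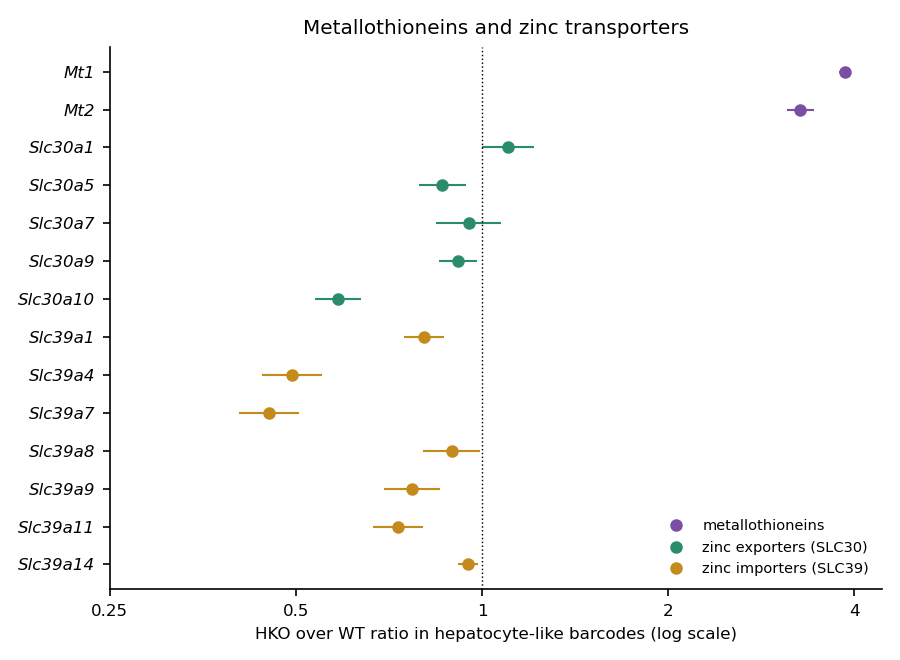
HKO over WT ratio of CPM in hepatocyte-like barcodes for metallothioneins and for SLC30 and SLC39 genes with a mean of at least 10 CPM, on a log axis, with bars for the 95% counting interval. Mt1 (3.87) and Mt2 (3.27) stand apart from 12 transporters, which lie between 0.452 and 1.10.

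Genes that share a regulator or a metal with the metallothioneins gave a mixed picture. Among 5 genes listed as targets of Mtf1, 2 reached 10 CPM, Slc30a1 and the selenoprotein Selenow, which was at 1.34 (1.29 to 1.40). Below that level Ndrg1, named after its value was seen, was at 0.357 and Slc39a10 at 0.666. At a minimum of 1 CPM, 2 of the targets were higher and 2 lower, and the median turned from 0.28 to −0.22 on the log2 scale. The list holds targets without regard to whether Mtf1 raises or lowers them, so these counts are not read as Mtf1 activity. Of 11 copper-handling genes, 8 reached 10 CPM, 4 of them higher and 4 lower in HKO, close to the split of all genes. The copper chaperone Atox1 was at 1.42, and Sco2, which serves cytochrome oxidase, at 0.555. Of 9 glucocorticoid-induced genes, 7 were lower and 2 higher, against 53.6% lower over all genes, and their median log2 ratio was −0.69. Zbtb16 (0.496), G6pc (0.501), Tat (0.546), Tsc22d3 (0.599) and Sgk1 (0.619) differed most. Of 18 acute-phase genes, 9 were higher and 9 lower, again close to the split of all genes, from Hp at 0.596 to Lcn2 at 1.97, and a median of 0.0080 on the log2 scale.

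Metallothionein levels ran differently along a zone score in the 2 libraries. The score is made of transcripts, and no position in the liver lobule was measured. Hepatocyte-like barcodes were ranked within each library by this score, 10 pericentral genes minus 11 periportal genes, and cut into 3 zones of equal size. In WT, Mt1 stood at 133 CPM (127 to 139) in the periportal zone, 293 CPM (285 to 302) in the middle and 295 CPM (287 to 304) in the pericentral zone. In HKO it stood at 935 CPM (918 to 953), 1241 CPM (1212 to 1270) and 699 CPM (680 to 718). The pericentral over periportal ratio was thus 2.23 (2.11 to 2.35) in WT and 0.747 (0.723 to 0.772) in HKO, and every zone of HKO lay above every zone of WT.

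Mt2 had the same shape. It was at 27.6, 60.5 and 65.9 CPM from periportal to pericentral in WT, a ratio of 2.39 (2.13 to 2.68). In HKO it was at 179, 215 and 117 CPM, a ratio of 0.653 (0.602 to 0.706). Between zones of the same name, the difference between the libraries was therefore widest at the periportal end. There HKO over WT was 7.04 (6.72 to 7.39) for Mt1 and 6.48 (5.83 to 7.20) for Mt2. In the pericentral zone it was 2.37 (2.27 to 2.46) for Mt1 and 1.77 (1.61 to 1.94) for Mt2, with the middle zones between, at 4.23 and 3.56. Zones were ranked within each library, so zones of the same name were not alike. In the pericentral zone Glul was at 424 CPM in WT and 1258 in HKO, Oat at 238 and 1222, and Cyp2f2 at 540 and 240. In the periportal zone Glul was at 24.6 and 18.6 CPM, Oat at 16.1 and 32.6, and Cyp2f2 at 1164 and 1047.

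**Figure D2:**
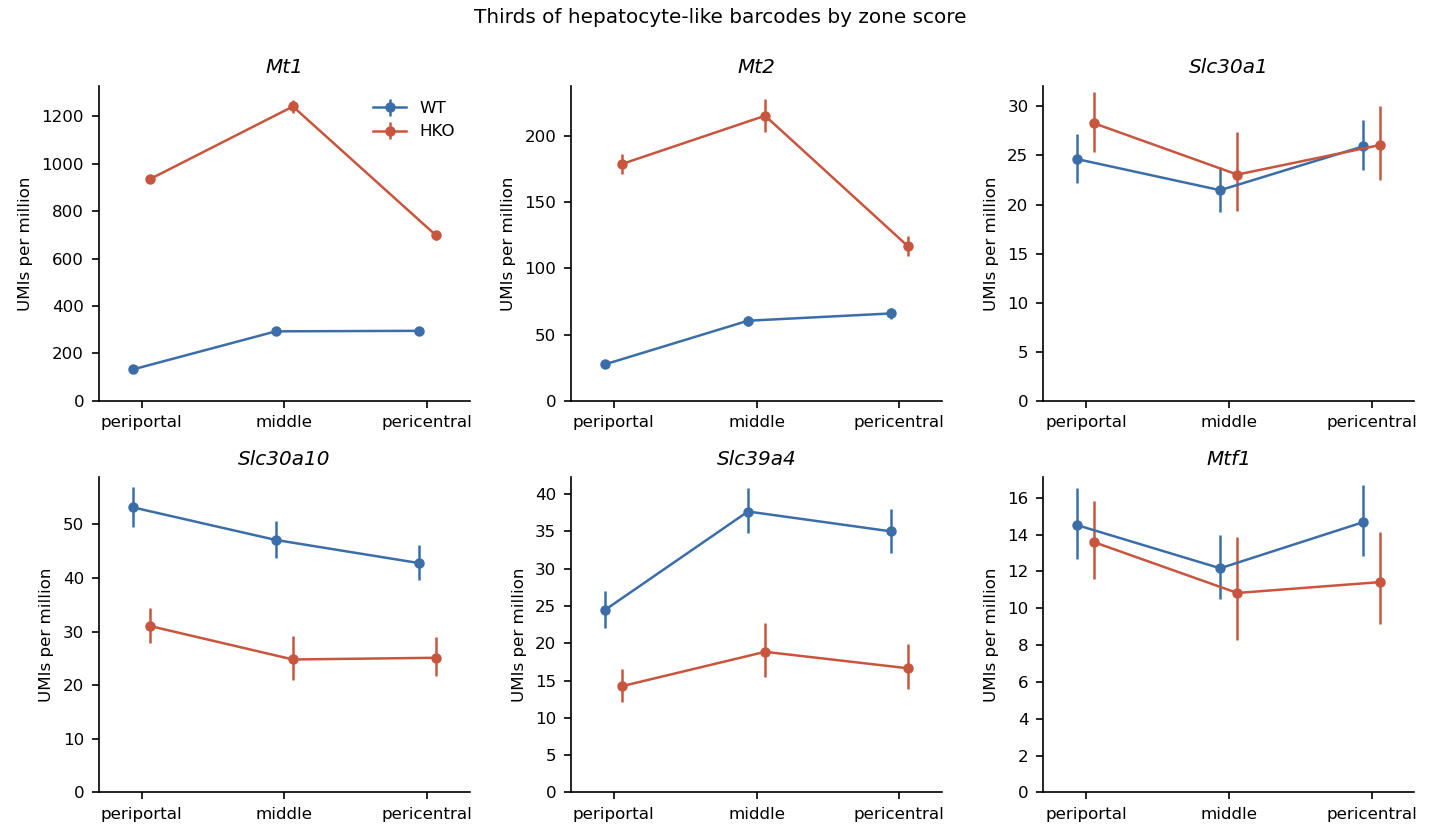
CPM of the 6 genes in the periportal, middle and pericentral zone of hepatocyte-like barcodes in WT and HKO, on linear axes from 0, with bars for the 95% counting interval. Mt1 and Mt2 are lowest in the periportal zone of WT (133 and 27.6 CPM) and in the pericentral zone of HKO (699 and 117 CPM).

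The other 4 genes had zone ratios nearer to 1. Slc30a10 was lower at the pericentral end, by a ratio of 0.805 (0.726 to 0.892) in WT and 0.809 (0.675 to 0.967) in HKO. Slc39a4 had a ratio of 1.43 (1.25 to 1.64) in WT and 1.17 (0.919 to 1.48) in HKO. Slc30a1 (1.05 in WT, 0.922 in HKO) and Mtf1 (1.01 and 0.841) had intervals that held 1 in both. Their HKO over WT ratios varied little over the zones, from 0.527 to 0.587 for Slc30a10 and from 0.476 to 0.582 for Slc39a4.

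Of the 7074 genes, 636 (8.99%) had a zone ratio above 1 in WT and below 1 in HKO, Mt1, Mt2, Slc30a1 and Mtf1 among them, the last 2 with intervals that held 1 in both libraries. With a stricter limit, 121 (1.71%) were at least 2-fold higher in the pericentral than in the periportal zone of WT, and 4 (0.0565%) of all were so in WT and below 1 in HKO. These were Mt1, Mt2 and the serum amyloid genes Saa1 and Saa2, acute-phase reactants secreted by hepatocytes, which were named after their values were seen. Ranked by the fall of the zone ratio from WT to HKO, Mt2 was at place 1 and Mt1 at place 5. Lcn2, an acute-phase protein that binds iron siderophores, Saa2 and Saa1 held the places between, and Lcn2 went from 1.77 to 0.497. The first 10 also held Ifit1 (1.16 to 0.411), Cdh1 (0.290 to 0.104), Rsad2 (1.17 to 0.442), Cib3 (1.17 to 0.455) and Isg15 (1.91 to 0.792), named after their values were seen. Cdh1 was itself a gene of the zone score. Saa1 went from 2.33 (2.20 to 2.47) in WT to 0.745 (0.704 to 0.789) in HKO. Saa2 went from 3.34 (3.03 to 3.68) to 0.973 (0.896 to 1.06), an interval that holds 1. Of the 18 acute-phase genes, 17 had a lower zone ratio in HKO than in WT, against 2787 (39.4%) of all 7074 genes.

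Several measured properties moved with the zones. The pericentral genes Glul, Oat, Slc1a2 and Lhpp, which entered the score, were themselves 2.28-fold, 3.97-fold, 2.95-fold and 2.57-fold higher in HKO. With those 4 left out of the score the ratio was 2.18 in WT and 0.713 in HKO for Mt1. Depth was even over the zones in WT (medians of 21246, 19298 and 21372 UMIs) and uneven in HKO (8373, 3001 and 3375 UMIs). In barcodes of both libraries from 5000 up to 20000 UMIs the Mt1 ratio was 1.42 (1.25 to 1.63) in WT and 0.769 (0.736 to 0.803) in HKO, and that of Mt2 was 1.42 (1.07 to 1.88) and 0.729 (0.657 to 0.809), so the WT ratios were over 1.5 times lower than over all barcodes. The median mitochondrial share was 13.6%, 8.06% and 11.8% in WT and 12.6%, 5.69% and 9.58% in HKO. Among barcodes under 10% mitochondrial UMIs the Mt1 ratio was 2.26 in WT and 0.651 in HKO, and among the others 1.82 and 0.660. The part of depth and of mitochondrial share in the zone ratios was not tested. Because 3 livers were pooled, a pattern carried by 1 liver cannot be told apart from one shared by all.

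**Figure D3:**
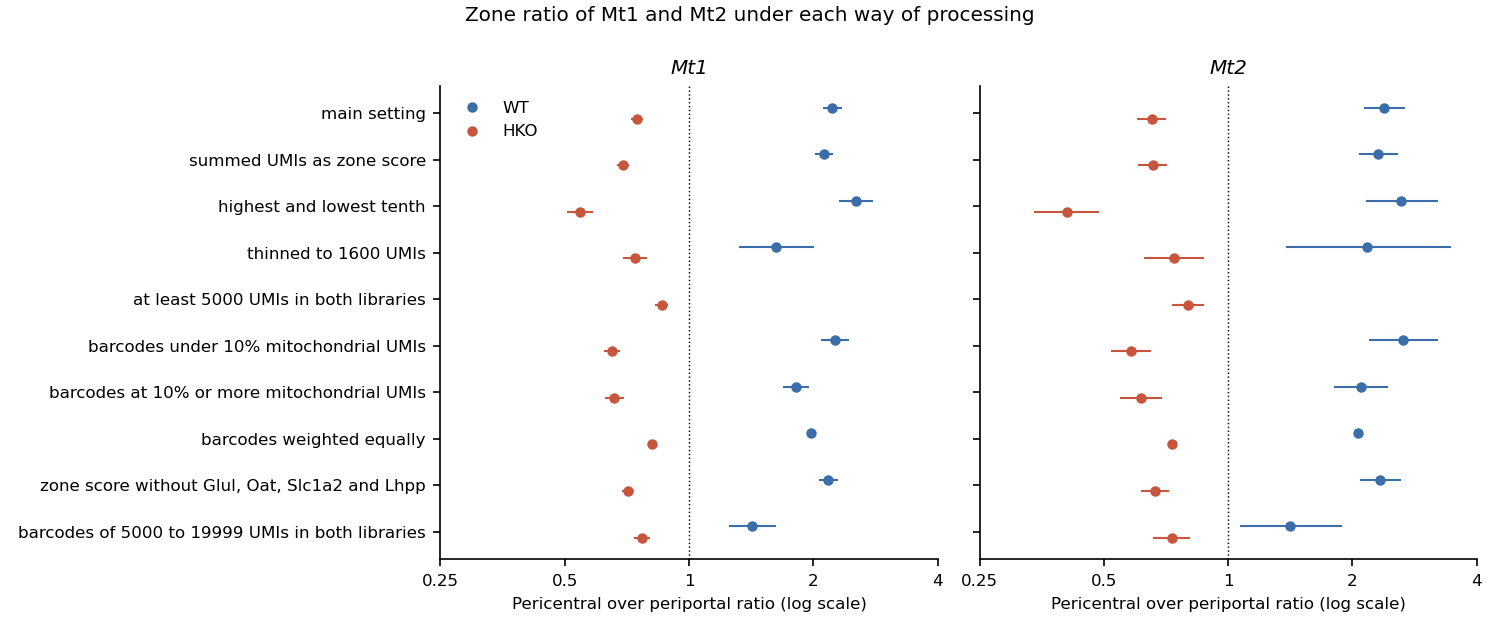
Pericentral over periportal ratio of Mt1 and Mt2 in WT and HKO for each way of scoring, filtering or weighting the barcodes, on a log axis, with bars for the 95% counting interval where one can be computed. Under every setting shown the WT ratios are above 1 and the HKO ratios below 1. All WT barcodes already had at least 5000 UMIs, so that setting has a point for HKO only.

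The metallothioneins varied widely between barcodes of the same library. Barcodes with at least 5000 UMIs were thinned to 5000 UMIs each, which kept all 1826 of WT and 1578 of HKO and left out 1942 shallower HKO barcodes. At that depth Mt1 averaged 1.015 UMIs in WT and 4.28 in HKO. The median was 0 in WT and 1 in HKO, the 90th percentile 3 and 11, and the maximum 25 and 104. Mt1 was at 0 in 51.7% of WT and 37.1% of HKO barcodes. The highest 10% of barcodes held 49.2% of all Mt1 UMIs in WT and 57.5% in HKO, but thinned to 1600 UMIs, which also took in the 1942 shallower HKO barcodes, the shares were 62.7% and 48.3%. The order of the libraries thus turned with both changes made together. The variance over the mean was 3.33 in WT and 17.3 in HKO, and of 2628 genes with at least 50 CPM, 114 had a higher value in WT and 24 in HKO. Unthinned, 75.3% of WT and 74.4% of HKO hepatocyte-like barcodes had at least 1 Mt1 UMI, against 37.9% and 47.7% of barcodes of free RNA depth, whose median depths were 2566 and 900 UMIs. For its Alb, the Mt1 level of hepatocyte-like barcodes was 1.17 times that of free RNA in WT and 1.25 times in HKO, and the Mt2 level 0.879 and 1.10 times.

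Mt2 was at 0 in 83.7% of WT and 67.2% of HKO barcodes after thinning, with maxima of 12 and 19 UMIs. For the other 4 members the variance over the mean lay between 0.982 and 1.11 in both libraries, near the value of 1 that counting alone gives, and none exceeded 3 UMIs in a thinned barcode. At their means of 0.0602 to 0.241 UMIs a spread between barcodes could be missed, and Slc39a4 was among the 10 genes with the highest fold in 1 hepatocyte cluster of 268 barcodes. Mt1 and Mt2 had the highest folds in a cluster of 2800 barcodes, with Saa1 and Saa2 among its first 10 genes. Mt1 was also among the first 10 in a cluster of 1568 barcodes. Clusters were formed over both libraries and all depths together, and the part of the libraries in them was not tested.

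Mt1 and Mt2 went together across barcodes. The Pearson correlation of their log counts at 5000 UMIs was 0.416 over 1826 WT barcodes and 0.674 over 1578 HKO barcodes, and at 1600 UMIs it was 0.246 and 0.427. The median correlation of Mt1 with 2628 genes was 0.019 in WT and −0.0093 in HKO. Barcodes of 1 library share its preparation and are not replicates, so no p was computed. After Mt2, the 10 genes most like Mt1 by the lower correlation of the 2 libraries were Gpx4, Dbi, Saa1, Ly6d, S100a10, Ftl1, Atp5j2, Atox1, Rplp1 and Uqcr11, between 0.215 and 0.2504. At 1600 UMIs, 3 of the 10 remained in the first 10 (Gpx4, Dbi and Ftl1). Saa1, which shared the zone pattern, had 0.230 in WT and 0.341 in HKO. The correlation of Mt1 with the zone score was 0.044 in WT and −0.185 in HKO, and both are weak. At 1600 UMIs it was 0.0066 and −0.144. In WT it was thus near 0, although the pericentral over periportal ratio of summed Mt1 UMIs was 2.23.

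Mt1 was lowest in the barcodes with the highest mitochondrial share. In WT it stood at 313 CPM under 5% mitochondrial UMIs, 345 from 5 to 10%, 218 from 10 to 20% and 107 from 20 to 50%. In HKO it stood at 1522, 1375, 745 and 347 CPM in the same bins. Each bin of HKO lay above the same bin of WT, with ratios between 3.25 (3.02 to 3.50) and 4.86 (4.70 to 5.03). The transporters varied over these bins too. Slc30a10 ran from 44.5 to 48.98 CPM in WT, and in HKO it stood at 20.8 CPM under 5% and between 29.95 and 30.5 CPM in the other bins. Slc30a1 was lower in HKO under 5%, at 0.783 (0.623 to 0.977), and higher from 20 to 50%, at 1.28 (1.04 to 1.58), so its direction turned. Slc39a4 had a ratio of 0.266 (0.201 to 0.345) under 5% and 0.790 (0.585 to 1.06) from 5 to 10%, on either side of the 0.493 over all barcodes.

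Mt1 and Mt2 were higher in HKO in every depth bin, but the bins did not hold the same kinds of barcodes in both libraries. The minimum of hepatocyte-like barcodes was 5141 UMIs in WT and 1626 in HKO. The WT bins below 5000 UMIs therefore held barcodes of free RNA depth alone. The HKO bin from 500 up to 1000 UMIs did so too. From 2000 up to 5000 UMIs, 18128 such WT barcodes were set against 1294 hepatocyte-like HKO barcodes, with an Mt1 ratio of 5.51. Over all barcodes without other cell markers, Mt1 stood between 138 and 324 CPM in the 7 depth bins of WT and between 714 and 1251 CPM in those of HKO. The HKO over WT ratio lay between 3.68 (2.82 to 4.91), from 500 up to 1000 UMIs, and 6.50 (6.08 to 6.95), from 10000 up to 20000 UMIs, where WT was lowest. For Mt2 the ratio lay between 2.53 and 5.34. In the 6 bins below 50000 UMIs that of Slc30a10 lay between 0.349 and 0.633 and that of Slc39a4 between 0.430 and 0.762. The deepest bin held 165 WT barcodes and 2 of HKO.

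**Figure D4:**
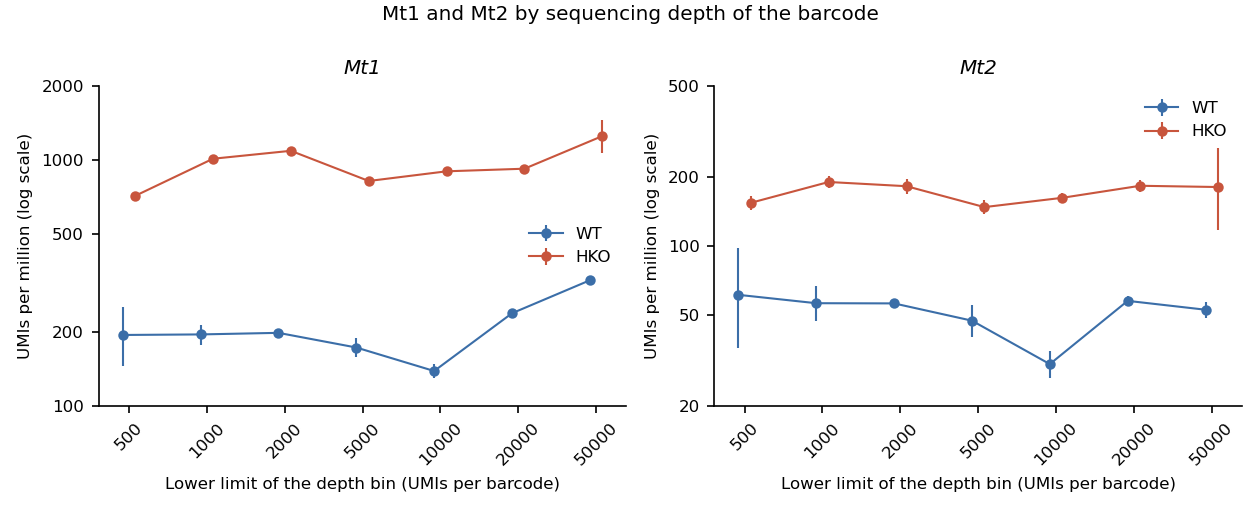
CPM of Mt1 and Mt2 in barcodes without markers of non-hepatocyte cells, by the number of UMIs in the barcode, for WT and HKO, on log axes with bars for the 95% counting interval. HKO lies above WT in all 7 bins, and the WT level of both genes is lowest from 10000 up to 20000 UMIs (138 and 30.4 CPM). The WT bins below 5000 UMIs hold barcodes of free RNA depth alone, while HKO barcodes are hepatocyte-like from 1626 UMIs upward.

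Outside hepatocytes the levels have to be read against free RNA, since Alb (albumin) was counted in at least 99.8% of the barcodes of every class. In barcodes of free RNA depth Mt1 was at 198 CPM in the WT library, against 819 CPM in HKO, and HKO over WT was 4.14 (4.02 to 4.26). An amount of free RNA was estimated for each class from its Alb count. T and NK-like barcodes, taken as cells with no albumin of their own, had 1.197 times (0.986 to 1.44) the estimate for Mt1 in WT and 0.937 times (0.843 to 1.04) in HKO. Their share with an Mt1 UMI was 48.8% in WT and 39.2% in HKO, at median depths of 5522 and 2166 UMIs. In B and plasma-like barcodes the values were 0.625 and 0.868 times the estimate. The ratios of 1.96 and 3.22 between the libraries in those 2 classes are at the level of background and are not read as expression.

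Endothelial-like, macrophage-like and mixed endothelial and stellate-like barcodes held more metallothionein RNA than that estimate. Monocyte and dendritic-like barcodes did so for Mt1, at 2.88 times (2.20 to 3.71) in WT and 1.41 times (1.15 to 1.70) in HKO, but with free RNA scaled from hepatocyte-like barcodes the HKO value was 1.12 times, below that interval. Neutrophil-like barcodes of HKO had 2.09 times (1.59 to 2.70) for Mt1 and 2.41 times (1.32 to 4.04) for Mt2. Erythroid-like barcodes had 1.55 times (1.06 to 2.19) for Mt1 in WT and 1.54 times (1.24 to 1.89) in HKO. Single barcodes weighed on both classes in HKO, as given below. Endothelial-like barcodes (65 in WT, 131 in HKO) had 328 CPM of Mt1 (280 to 383) in WT and 635 CPM (568 to 709) in HKO, 4.52 and 3.50 times the free RNA estimate. At a Leiden resolution of 2 those multiples were 3.315 and 2.79, below their intervals. With free RNA scaled from hepatocyte-like barcodes they were 3.87 and 2.79. The ratio between the libraries was 1.94 (1.60 to 2.35), below that of hepatocyte-like barcodes. Macrophage-like barcodes (31 and 145) had 284 CPM (241 to 331) and 347 CPM (318 to 379), 7.60 and 4.78 times the estimate, with a ratio of 1.22 (1.02 to 1.47). With the other scaling the HKO multiple fell to 3.81 in macrophage-like barcodes. In mixed endothelial and stellate-like barcodes of HKO it fell from 8.06 to 6.43, and both lay below their intervals. In barcodes with mixed endothelial and stellate markers (22 and 84) Mt1 had a ratio of 1.66 (1.37 to 2.02) and Mt2 of 1.07 (0.812 to 1.43). That cluster also carried 5 macrophage markers (Clec4f, Vsig4, Cd5l, C1qc and Csf1r), and with a Leiden resolution of 2 or with doublets kept it was named for all 3 cell types. Single barcodes weighed on the WT values: 1 held 22.0% of the Mt1 and Mt2 UMIs of endothelial-like barcodes, and 1 held 31.2% of those of the mixed class. Without the barcode with the most Mt1 in each class, the WT levels were 266 CPM in endothelial-like, 281 in mixed, 246 in macrophage-like, 342 in stellate-like and 237 in hepatocyte-like barcodes, so the order of the first 4 classes in WT rests on single barcodes. Free RNA forms part of every one of these values, and its level differed between the libraries.

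In WT, hepatocyte-like barcodes were not the class with the most Mt1 UMIs for its depth. Mixed endothelial and stellate-like (334 CPM), endothelial-like (328), macrophage-like (284) and stellate-like barcodes (266) stood above them at 242 CPM, and neighbours in that order had overlapping intervals. Stellate-like barcodes carried much hepatocyte RNA, with Alb at 34649 CPM against 36419 CPM in hepatocyte-like barcodes, and their Mt1 was 1.35 times (1.02 to 1.75) the free RNA estimate in WT and 0.723 times (0.590 to 0.876) in HKO, so their place is not read as expression. Below came erythroid-like (189), monocyte and dendritic-like (172), neutrophil-like (138, from 10 UMIs), T and NK-like (116), mixed T, NK, monocyte and dendritic-like (98.0), cholangiocyte-like (76.3) and B and plasma-like barcodes (69.9). In HKO, hepatocyte-like barcodes were first at 935 CPM, apart from the next, neutrophil-like at 652 (496 to 841) and endothelial-like at 635. Erythroid-like (566), mixed endothelial and stellate-like (553), cholangiocyte-like (487) and stellate-like (426) followed, and macrophage-like (347), monocyte and dendritic-like (231), T and NK-like (227), B and plasma-like (225) and mixed T, NK, monocyte and dendritic-like (112) were lowest. Barcodes left unnamed stood at 274 CPM in WT and 598 in HKO. In erythroid-like barcodes of HKO 1 barcode held 41.8% of the Mt1 UMIs, and without it the level was 344 CPM, below stellate-like barcodes. In neutrophil-like barcodes of HKO 1 barcode held 27.1%, and the level without it was 514 CPM. Cholangiocyte-like barcodes (12 in WT, 27 in HKO) had 18 and 124 Mt1 UMIs, 0.689 and 2.92 times the free RNA estimate.

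The balance of Mt1 to Mt2 also differed between classes. UMIs were not scaled by gene length, so this ratio compares classes and not the genes. There were 4.68 Mt1 UMIs (4.48 to 4.90) for each Mt2 UMI in WT hepatocyte-like barcodes and 5.55 (5.37 to 5.73) in HKO. Endothelial-like barcodes had 2.55 (1.90 to 3.46) and 3.46 (2.74 to 4.41). Macrophage-like barcodes had 10.6 (6.24 to 19.4) in WT, from 15 Mt2 UMIs, and 6.58 (5.17 to 8.48) in HKO. Barcodes of free RNA depth had 3.53 (3.39 to 3.68) in WT and 4.85 (4.60 to 5.11) in HKO. In both libraries the endothelial-like value thus lay below those of hepatocyte-like barcodes and of free RNA depth. In WT its interval overlapped that of free RNA depth. Free RNA forms part of the ratio of every class.

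**Figure D5:**
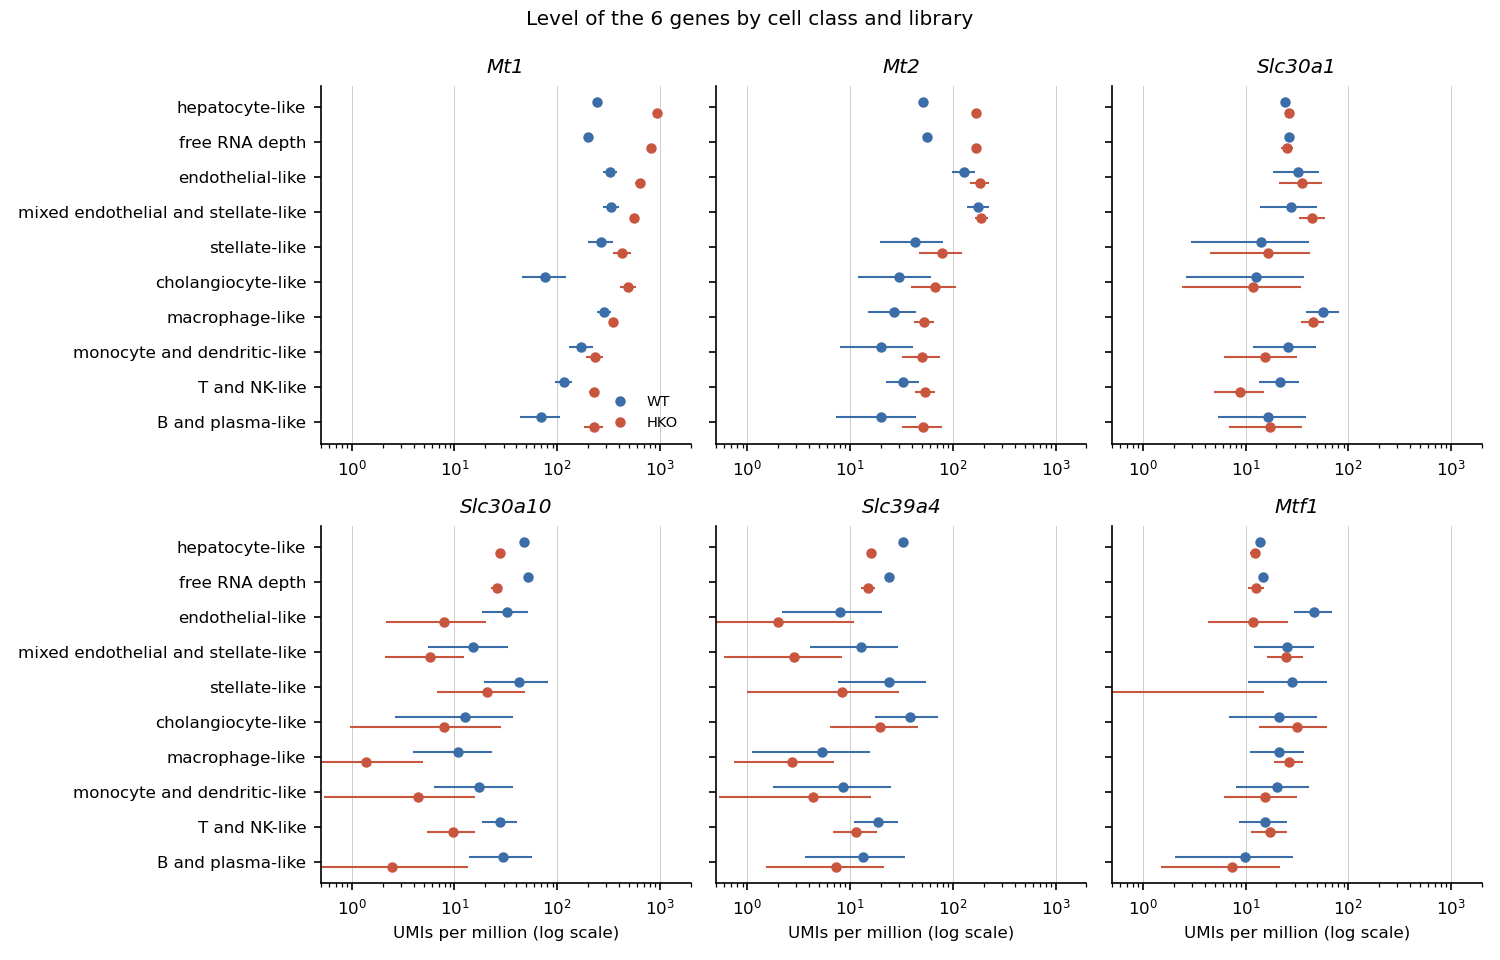
CPM of the 6 genes in 10 classes of barcodes in WT and HKO, on a log axis, with bars for the 95% counting interval, and no point where 0 UMIs were counted. Mt1 in HKO is highest in hepatocyte-like barcodes (935 CPM) and lowest of the classes plotted in B and plasma-like barcodes (225 CPM), and Slc30a1 is highest in macrophage-like barcodes of both libraries (57.1 and 45.2 CPM).

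Slc30a1 and Mtf1 did not have their highest levels in hepatocyte-like barcodes. Slc30a1 had its highest level in macrophage-like barcodes, 57.1 CPM (39.04 to 80.6) in WT and 45.2 CPM (34.97 to 57.5) in HKO, 11.3 and 20.1 times the free RNA estimate. The mixed endothelial and stellate-like barcodes of HKO had 44.8 CPM, and endothelial-like barcodes 32.2 CPM in WT and 35.5 CPM in HKO. Mtf1 stood at 26.7 CPM (19.0 to 36.5) in macrophage-like barcodes of HKO, from 39 UMIs, against 12.3 CPM in hepatocyte-like barcodes. In macrophage-like barcodes of WT it was at 21.4 CPM, from 12 UMIs. Its highest value in HKO was 31.4 CPM (13.6 to 61.95) in cholangiocyte-like barcodes, from 8 UMIs. T and NK-like barcodes of HKO held 4.59 times (3.02 to 6.67) the free RNA estimate. In endothelial-like barcodes Mtf1 had 23 UMIs in WT and 6 in HKO, 46.3 and 11.8 CPM. Counts of that size allow a ratio of between 0.0852 and 0.646.

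Outside hepatocyte-like barcodes no excess of Slc30a10 over free RNA was detectable at these depths. Its values lay between 0.301 (0.00761 to 1.68), in B and plasma-like barcodes of HKO, and 2.77 (0.572 to 8.11), in mixed T, NK, monocyte and dendritic-like barcodes of HKO, times the estimate. The interval held 1 in every class of both libraries, and several rested on few UMIs, as for 2.66 times (0.975 to 5.79) from 6 UMIs in the mixed endothelial and stellate-like barcodes of HKO. Slc39a4 in endothelial-like and macrophage-like barcodes rested on 1 to 4 UMIs a library. It stood above its estimate in cholangiocyte-like barcodes, where 9 UMIs in WT were 2.85 times (1.30 to 5.42) and 5 UMIs in HKO 6.41 times (2.08 to 14.97) the estimate. In T and NK-like barcodes 18 UMIs in each library were 1.59 times (0.944 to 2.52) the estimate in WT and 2.59 times (1.53 to 4.09) in HKO, so the HKO value lay above it.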

How the data were processed

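Single-cell RNA-seq (10x Genomics) was read from 1 WT and 1 HKO library, each a pool of 3 livers. The deposited files hold raw UMI counts for each gene and barcode, which the authors made with Cell Ranger 7.1.0 per the file headers. The submitters' processing notes also name R 3.0, Seurat 3 and the mm10 genome. No column of a sample went unused. Barcodes with at least 500 UMIs, at least 300 genes and at most 50% mitochondrial UMIs were kept (29620 in WT, 18247 in HKO). The highest doublet scores, 0.8% of barcodes for each 1000 barcodes kept, were left out (7019 and 2664), since the automatic threshold marked 0. Barcodes shared by the libraries were not analysed here.

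Barcodes were clustered (2000 variable genes, 30 components, 15 neighbours, Leiden resolution 1) and named from marker lists where at least 3 markers were detected in 10% of barcodes and 2-fold enriched. The depth minimum of hepatocyte-like barcodes, 2 times the mode of each library, was 5141 UMIs in WT and 1626 in HKO. Levels are summed UMIs over all UMIs of a class. Intervals were exact Poisson, exact binomial or exact conditional at 95%. Intervals cover counting error only and no spread between animals. The expected free RNA was the level in barcodes of free RNA depth, scaled by Alb.

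The 6 genes and all gene lists were chosen with earlier results of these data known. From each list, up to 5 genes with a mean of at least 10 CPM and the largest HKO over WT ratio in either direction were named, and the 10 genes most like Mt1 among those of at least 50 CPM. Other depth minima, thinning, weighting, zone scores, mitochondrial filters, denominators, size scaling, free RNA subtraction, cluster resolution and keeping doublets were tried as alternatives. Promoter and miRNA sequences came from RefSeq (GRCm38.p6), and positions and 3′ UTRs from GENCODE. Tools were scanpy 1.11.5, leidenalg 0.10.2, igraph 0.11.9, scipy 1.17.1 and numpy 2.4.6 in Python 3.11.15. The estimators were tested on simulated data.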

Additional observations from a re-analysis of the deposited data

Results flagged for a closer look

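The zone ratio of both metallothioneins lay on opposite sides of 1 in the 2 libraries. Pericentral over periportal, Mt1 had a ratio of 2.23 in WT and 0.747 in HKO, and Mt2 a ratio of 2.39 in WT and 0.653 in HKO. The difference between the genotypes was not tested, because each genotype was 1 library of pooled livers.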

How the results depend on the processing

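Of 94 alternative values for the main ratios, 61 moved by less than their counting interval, 33 moved further, and no ratio whose interval lay off 1 changed side. For HKO over WT in hepatocyte-like barcodes, Mt1 was 3.67 at 5000 UMIs or more, and without a depth minimum Mt1 was 4.12 and Slc39a4 0.562, no longer 2-fold lower. With barcodes weighted equally Mt1 was 4.99 and Mt2 3.65. Without the highest 1% of barcodes Mt1 was 3.99 and Mt2 3.77. Thinned to 1600 UMIs, Mt1 was 4.80, Mt2 3.52, Slc30a10 0.465, Slc39a4 0.440 and Mtf1 1.04, on the other side of 1 from its reported 0.894, whose interval holds 1.

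For pericentral over periportal, Mt1 in HKO was 0.690 with summed UMIs as the score. Between the highest and lowest 10% of barcodes, Mt1 was 2.54 in WT and 0.544 in HKO, and Mt2 in HKO 0.407. At 5000 UMIs or more the HKO ratios were 0.858 for Mt1 and 0.799 for Mt2. Thinned to 1600 UMIs, Mt1 in WT was 1.63 and Mt2 in HKO 0.741.

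Further alternatives were added after seeing the data. In barcodes under 10% mitochondrial UMIs, Mt1 in HKO was 0.651 and Mt2 0.581, and in the others Mt1 was 1.82 in WT and 0.660 in HKO, and Mt2 in WT 2.099. Weighted equally, Mt1 was 1.98 and 0.813 and Mt2 2.06 and 0.732 in WT and HKO. From 5000 up to 20000 UMIs, Mt1 in WT was 1.425 and Mt2 1.415 in WT and 0.729 in HKO, so the WT ratio of both fell by more than 1.5 times. Without Glul, Oat, Slc1a2 and Lhpp in the score, Mt1 in HKO was 0.713. The Mt1 level of each class was also taken without its highest barcode, which moved that of HKO erythroid-like barcodes from 566 to 344 CPM. The share of Mt1 UMIs in the highest 10% of barcodes changed its order between the libraries when barcodes were thinned to 1600 UMIs and the shallower HKO barcodes taken in. The causes were not tested.

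No paired analysis was possible because each genotype was 1 library. Leaving out a replicate was not possible for the same reason, and the spread between livers was not measured. HKO barcodes held fewer UMIs than those of WT, and the depth minimum, set from each library, was lower for HKO.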
